A study of Mus musculus with 77 samples.

Results

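The enrichment of labelled RNA by pull-down was compared between liver and kidney mRNA. For each gene, enrichment is the log2 ratio of pull-down over input within a tissue, averaged over the diets, and the value described throughout is the liver enrichment minus the kidney enrichment. The libraries were chosen by their labels alone, as all those of liver mRNA and kidney mRNA, which are 22 of the 77 libraries in the series. A positive difference means that the pull-down raised a gene more, or lowered it less, in liver than in kidney, so a gene may show one while it is far more abundant in either tissue.

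There were 6 liver pull-down and 6 liver input libraries (3 from mice on a high-fat diet, HFD, and 3 on a low-fat control diet, LFD, in each) and 5 kidney pull-down and 5 kidney input libraries (3 HFD and 2 LFD in each). All mice were males of 12 weeks that had eaten their diet for 2 weeks. All of them, on both diets, carried Cyp3a13tm1Ahs, a targeted allele of Cyp3a13, together with Del(5Cyp3a57-Cyp3a59)1Ahs, a deletion of the interval it names, and Tg(APOE-CYP3A4)A1Ahs, a human CYP3A4 transgene under APOE sequences, on an FVB.129P2 background. No group without the transgene is among these libraries, so its part in any difference was not tested. The labels name neither the label compound nor the steps of the pull-down, and they do not say whether replicates were separate animals, so p-values measure the spread between these libraries, which may be technical.

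Pull-down of labelled RNA separates transcripts that took up a chemical tag while the tag was present from older or untagged transcripts, so short-lived and newly made RNAs are often gained and long-lived ones lost. Where the tag needs an enzyme to act, cells that lack the enzyme contribute less. Hepatocytes are the main source of plasma proteins, bile acids and cholesterol, and their APOE sequences are widely used to direct transgenes to liver, while the kidney is built of nephron segments, with the proximal tubule as the bulk of the cortex and the distal segments fine-tuning salt balance.

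Libraries held 3389320 to 4426392 assigned counts in liver pull-down, 3033702 to 4942158 in liver input, 3741335 to 13713002 in kidney pull-down and 7970076 to 19645443 in kidney input. The tissue labels fitted the medians of their markers. Alb had a median of 22800 CPM (assigned counts scaled to a common library total) in liver pull-down and 41000 CPM in liver input. In kidney its medians were 1.7 CPM in pull-down and 3.1 CPM in input. The proximal tubule gene Kap had medians of 4.95 and 16.9 CPM in liver pull-down and input and 12100 and 62500 CPM in kidney pull-down and input. Single liver libraries reached 51.2 CPM of Kap in pull-down and 158 CPM in input. For Slc34a1, another proximal tubule gene, they reached 4.68 and 13.8 CPM. Where these kidney transcripts in liver libraries came from was not tested. The collecting duct gene Aqp2 had a median of 0 CPM in both liver fractions, and the Kupffer cell gene Clec4f a median of 0 CPM in both kidney fractions. Some inputs stood apart: liver input LFD 1 differed from LFD 2 by a chi-square of 55.023 per degree of freedom, against 1.12 between LFD 2 and LFD 3, and mitochondrial mRNA made up 16.6% and 17.6% of kidney inputs HFD 1 and LFD 1 but 11.6% to 12.0% of the others. Liver inputs HFD 1 and HFD 3 (1.174) and LFD 2 and LFD 3 (1.12) differed by little more than sampling noise, where all other pairs within a group reached 3.024 to 83.084. They were kept as separate libraries, and with each such pair summed into 1 library 729 genes were more enriched in liver and 428 less around a median of 0.05, against 510 and 1213 around -0.19 with them apart. Of the targeted genes, Cyp3a13 still had 59.9 to 145 CPM in liver pull-down and 8.24 to 190 CPM in liver input, and Cyp3a57 had 5.11 to 9.8 CPM in liver pull-down and 0.485 to 15.3 CPM in liver input, where CPM are scaled by TMM (a per-library factor that sets most genes equal), as in the gene values below unless said otherwise. Which part of each gene was removed is not given and reads of the human transgene may fall on these related genes, so these counts check nothing.

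Enrichment ran largely in parallel in the 2 tissues. Over the 8255 genes with a mean of at least 5 CPM in the inputs of both tissues, liver and kidney enrichment correlated with Pearson's r = 0.81 and Spearman's rho = 0.82, a description across genes, which are not independent replicates. Of 13724 genes tested with edgeR, 3516 were higher (25.6%) and 5049 lower (36.8%) in liver pull-down than in liver input (62.4% in either direction), and 4012 were higher (29.2%) and 4092 lower (29.8%) in kidney pull-down than in kidney input (59% in either direction). The difference between the tissues itself passed a Benjamini-Hochberg adjusted p of 0.05 for 510 genes in the liver direction (3.72%) and for 1213 in the kidney direction (8.84%), with a median difference over all genes of -0.19. Among genes measured in both inputs, 359 (4.35%) were more enriched in liver and 844 (10.2%) less, with a median of -0.15. In bulk tissue, fewer cells of a type and less RNA per cell cannot be told apart, and tissue and any batch of library making cannot be told apart either.

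The balance of directions depended on scaling. Size factors of the DESeq2 type gave 747 higher and 807 lower genes around a median of -0.04, and scaling to total counts gave 834 higher and 640 lower around -0.01. All 510 higher calls held under the 3 scalings (3.72%), but 634 of the lower ones did (4.62%). Among genes measured in both inputs these were 359 higher (4.35%) and 377 lower (4.57%). Both other scalings moved the median upward, which favours higher calls, so this check bears on the lower calls and hardly on the higher ones. Leaving out liver input LFD 1 gave 1739 higher and 889 lower genes. For the lists below, lower calls are given with the number that held under all 3 scalings. Their counts stand against all genes tested, of which 3.72% were more enriched in liver and 8.84% less (4.62% under all 3 scalings).

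**Figure D1:**
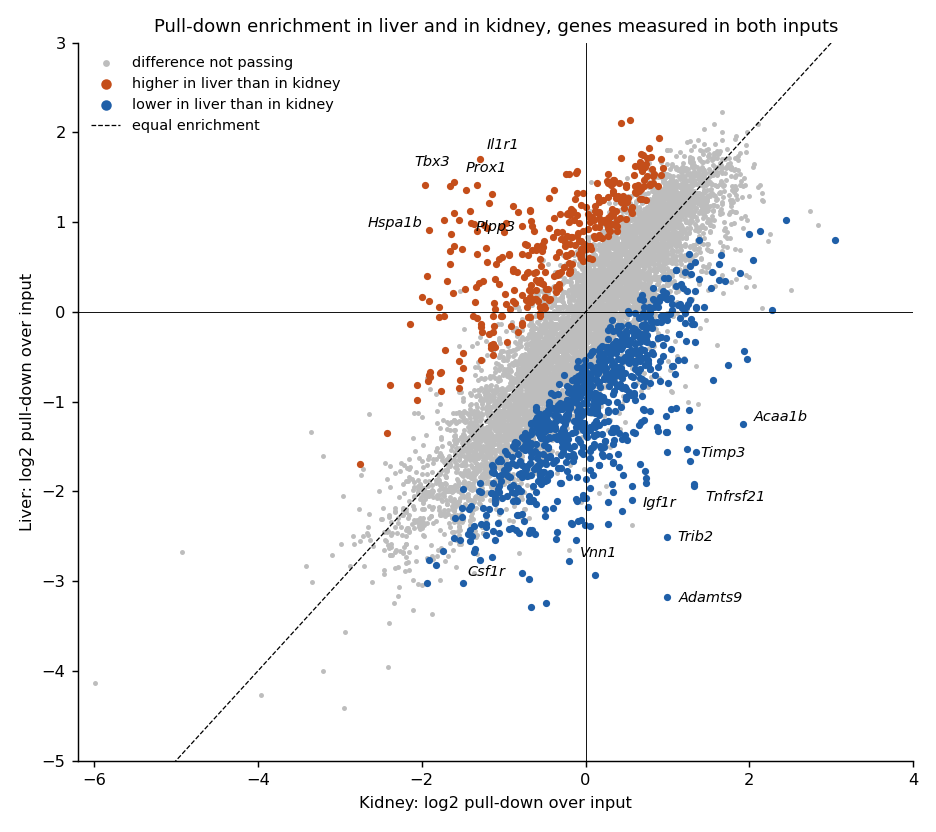
Log2 pull-down over input in liver (vertical axis) against kidney (horizontal axis) for the 8255 genes measured in both inputs; the dashed line marks equal enrichment. Orange points are the 359 genes more enriched in liver and blue points the 844 less enriched, and the labelled genes more enriched in liver lie left of and above 0 while Adamts9, Trib2, Tnfrsf21, Igf1r, Timp3 and Acaa1b lie to the right of and below 0.

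The difference arose in several ways. Of the 359 genes more enriched in liver, 128 (35.7%) were higher in liver pull-down with no call in kidney, 74 (20.6%) were lower in kidney pull-down with no call in liver, 71 (19.8%) were higher in liver pull-down and lower in kidney pull-down, 60 (16.7%) were higher in both and 26 (7.24%) were lower in both. Of the 844 less enriched in liver, 373 (44.2%) were lower in liver pull-down alone, 226 (26.8%) were lower in both, 132 (15.6%) were higher in kidney pull-down alone and 95 (11.3%) were lower in liver and higher in kidney. Among the 8255 genes, these opposite calls were 0.86% and 1.15%. Over all 13724 genes, 120 (0.874%) were higher in liver and lower in kidney pull-down and 184 (1.34%) the reverse, of which 120 and 172 did so under all 3 scalings.

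The 12 largest differences towards liver, among genes measured in both inputs, were each at least 2.51 on the log2 scale. All 12 were higher than input in liver pull-down and lower than input in kidney pull-down, and 9 had the higher input level in liver. They include transcription factors, a secreted antagonist, a cytokine receptor and a lipid phosphatase.

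Prox1, a homeobox transcription factor of hepatocytes and lymphatic endothelium, had 391, 422 and 468 CPM (lowest, median and highest) in liver pull-down, against 141, 168 and 179 CPM in liver input. In kidney it had 2.74, 2.18, 1.37, 3.05 and 0.861 CPM in the pull-downs and 6.55, 5.96, 4.94, 5.24 and 4.1 CPM in the inputs, in the order HFD 1, HFD 2, HFD 3, LFD 1 and LFD 2 that is used for kidney throughout. Every liver pull-down lay above every liver input and every kidney pull-down below every kidney input, and the difference was 2.82 ± 0.28 (SE), with an adjusted p of 1.07e-06 in edgeR. Tbx3, a T-box transcription factor needed in liver development, was at lower levels, with 39.2, 47.1 and 56.7 CPM in liver pull-down, against 12.6, 18.8 and 20.5 CPM in liver input. The kidney values of Tbx3 were 1.69, 1.52, 2.14, 3.47 and 2.03 CPM in pull-down and 4.58, 8.9, 8.93, 6.58 and 5.28 CPM in input, and the difference was 3.05 ± 0.29 (adjusted p 8.85e-07). Neither tissue's groups overlapped. Snai2, which encodes the repressor Slug and fell below 5 CPM in kidney input, had 17.4, 22.9 and 25.3 CPM in liver pull-down, against 5.69, 8.61 and 13.6 CPM in liver input. It had 15 counts over the kidney pull-downs and 176 over the kidney inputs, and its difference was 3.95 ± 0.51 (adjusted p 2.15e-05).

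Fst, encoding follistatin, the binding protein of activins, differed by 2.69 ± 0.32, with liver groups that overlapped and kidney pull-downs all below the inputs.

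Il1r1, the signalling receptor of interleukin 1, had 947, 1060 and 1190 CPM in liver pull-down, against 182, 354 and 376 CPM in liver input, the lowest being LFD 1. Kidney levels were 1.06, 3.05, 2.29, 3.47 and 0.984 CPM in pull-down and 4.58, 2.58, 3.93, 8.05 and 5.78 CPM in input. The liver groups stood apart and the kidney groups overlapped, and the difference was 2.98 ± 0.36 (adjusted p 1.07e-05). Plpp3, a lipid phosphatase that inactivates lysophosphatidic acid, had the smallest p of all genes tested. It had 489, 570 and 668 CPM in liver pull-down, against 201, 254 and 369 CPM in liver input, and 13.9, 10, 11.1, 28.3 and 20.2 CPM in kidney pull-down, against 37.6, 38.2, 41, 58.5 and 43.7 CPM in kidney input. No groups overlapped, and the difference was 2.53 ± 0.18 (adjusted p 1.21e-08). Others of the 12 were Phlda1 (3.06 ± 0.42), Tbc1d2b, a Rab GTPase-activating protein (2.82 ± 0.45), Hspa1b (described below), Slc35g1 (2.75 ± 0.30), Lrrfip1 (2.56 ± 0.24) and the tumour necrosis factor-induced Tnfaip2 (2.51 ± 0.35). All 12 kept their call in each of 31 alternative settings, which reuse the libraries that ranked them. These include a shift of all values by the median over all genes, which could not remove a call.

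**Figure D2:**
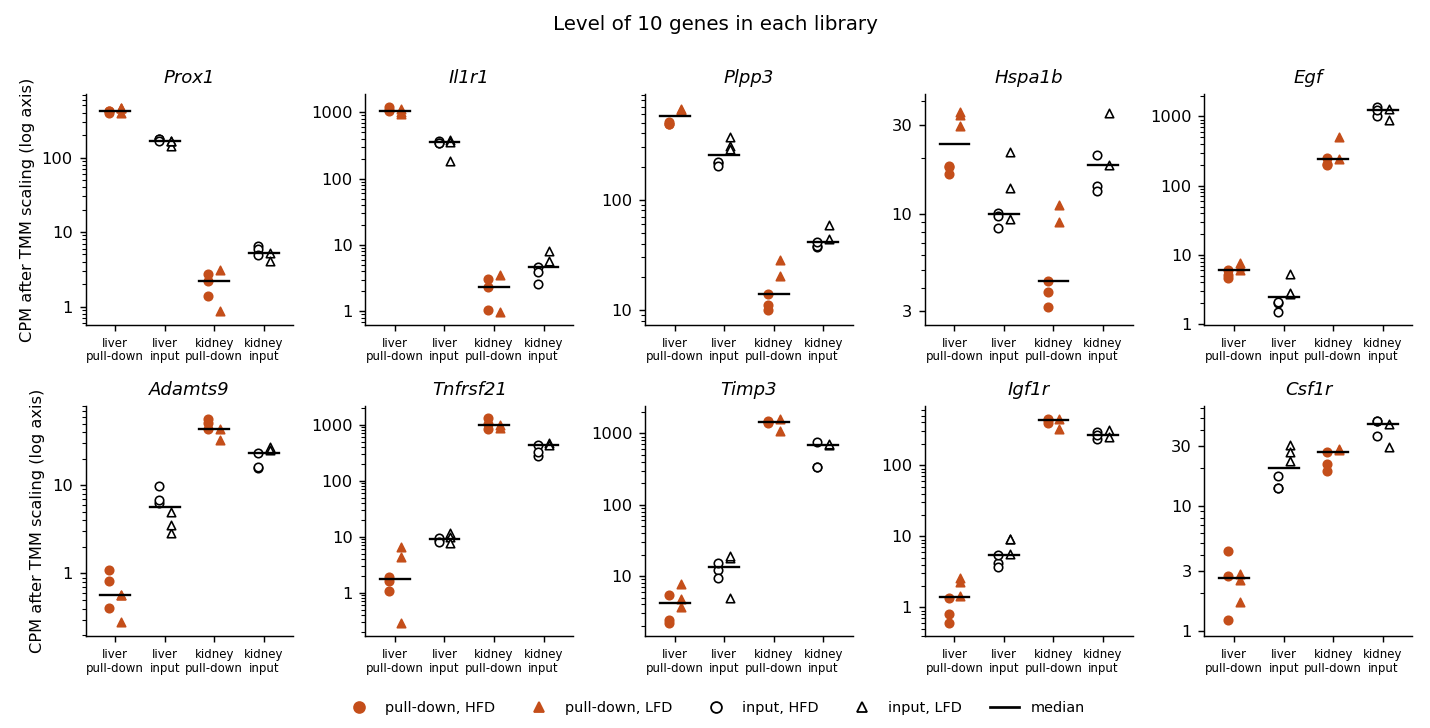
CPM after TMM scaling (log axis) of 10 genes in each of the 22 libraries, with HFD as circles, LFD as triangles, pull-down filled and input open; bars are medians. In liver, the pull-downs of Prox1, Il1r1 and Plpp3 lie above every input and those of Adamts9, Tnfrsf21, Igf1r and Csf1r below every input.

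The 12 largest differences towards kidney ran from -4.17 to -2.67. All 12 were lower than input in liver pull-down, 8 were also higher than input in kidney pull-down and 1, Pxdn, was lower there, and 2 of the 12 had the higher input level in liver. Matrix proteins, cell surface receptors and ubiquitin ligases were among them.

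Adamts9, a secreted protease that cleaves matrix proteoglycans, had 0.281, 0.568 and 1.09 CPM in liver pull-down (14 counts over 6 libraries), against 2.91, 5.7 and 9.87 CPM in liver input (106 counts). In kidney it had 43.9, 56.4, 51.6, 32.8 and 43.7 CPM in pull-down and 23.4, 15.6, 16.4, 27.3 and 25.2 CPM in input. Liver pull-downs all lay below the inputs and kidney pull-downs all above them, and the difference was -4.17 ± 0.35 (adjusted p 2.75e-07 in edgeR). Timp3, a matrix-bound inhibitor of metalloproteinases, had 2.22, 4.23 and 7.67 CPM in liver pull-down, against 4.85, 13.6 and 19.1 CPM in liver input. Its kidney values were 1450, 1400, 1490, 1060 and 1600 CPM in pull-down and 742, 332, 333, 690 and 709 CPM in input. The liver groups overlapped and the kidney groups did not, and the difference was -2.93 ± 0.42 (adjusted p 0.000103). Pxdn, a peroxidase that crosslinks collagen IV, differed by -2.76 ± 0.34.

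Tnfrsf21, encoding death receptor 6, had 0.284, 1.76 and 6.46 CPM in liver pull-down, against 7.84, 9.07 and 11.6 CPM in liver input. Kidney levels were 846, 1310, 1030, 864 and 982 CPM in pull-down and 436, 280, 326, 464 and 428 CPM in input. The groups did not overlap in either tissue, and the difference was -3.27 ± 0.40 (adjusted p 1.22e-05). Igf1r, the receptor of insulin-like growth factor 1, had 0.606, 1.39 and 2.56 CPM in liver pull-down, against 3.69, 5.51 and 9.21 CPM in liver input, and 447, 427, 393, 321 and 453 CPM in kidney pull-down, against 296, 231, 265, 312 and 246 CPM in kidney input. Its groups did not overlap either, and the difference was -2.67 ± 0.28 (adjusted p 2.2e-06). Further members were the pseudokinase gene Trib2 (-3.50 ± 0.37), the ubiquitin ligase genes Mylip (-3.25 ± 0.32), whose product degrades the low-density lipoprotein receptor, and Hecw2 (-3.05 ± 0.34), the repressor Zeb2 (-2.91 ± 0.32), the monocarboxylate transporter family gene Slc16a11 (-2.67 ± 0.42) and Dalrd3 (-2.77 ± 0.78). Dalrd3 lost its call in 8 of 31 settings, and the other 11 kept theirs.

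Among the 5469 genes below 5 CPM in an input, 151 (2.76%) were more enriched in liver and 369 (6.75%) less, and the largest differences rest on few liver counts. Fmnl1, a formin that builds actin filaments, had 0 counts in all 6 liver pull-downs and 26 over the liver inputs, at least 8.12-fold lower in pull-down against a floor of 3 counts over the group. In kidney it had 158, 181, 166, 164 and 175 CPM in pull-down and 60, 89.1, 86.1, 42.5 and 119 CPM in input (adjusted p of the difference 0.000218 in edgeR). Sim1, a transcription factor of the developing nephron, had 16 counts in liver pull-down and 0 in liver input, at least 5.69-fold higher in pull-down, with 9.92, 18.7, 8.24, 16.1 and 8.49 CPM in kidney pull-down and 25.8, 14.7, 17.6, 34 and 20.4 CPM in kidney input (adjusted p 0.0122). Mcoln2 had 0 counts in liver pull-down and 8 in liver input, at least 2.5-fold lower.

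The inducible HSP70 genes were more enriched in liver and the constitutive Hspa8 less. Of 12 heat shock genes measured, 3 were more enriched in liver (3.72% of all genes) and 2 less (8.84% of all genes; 1 of the 2 under all 3 scalings), with a list median of -0.16 against -0.19 over all genes (-0.01 and 0.06 for the list under the other scalings). Hspa1b, encoding an inducible HSP70, had 16.4, 23.8 and 35.2 CPM in liver pull-down, against 8.35, 9.92 and 21.3 CPM in liver input, and 3.17, 4.36, 3.81, 11.1 and 8.98 CPM in kidney pull-down, against 20.6, 14.1, 13.2, 34.5 and 18.3 CPM in kidney input. Liver groups overlapped and kidney groups did not, and the difference was 2.76 ± 0.30 (adjusted p 2.21e-06 in edgeR). The near-identical Hspa1a, with which it may share reads, had 2.42, 3.47 and 5.62 CPM in liver pull-down, against 1.85, 2.19 and 3.88 CPM in liver input. In kidney Hspa1a had 1.06, 1.96, 1.37, 2.5 and 0.861 CPM in pull-down, all below the 5.6, 7.03, 7.46, 9.27 and 4.97 CPM in input. Its difference was 2.82 ± 0.46 (adjusted p 0.000239), with a log2 change of -2.18 in kidney and of 0.63 in liver, the liver change not passing (adjusted p 0.1). Hspa8, the constitutive HSP70 of the same family, went the other way, with 93.3, 152 and 191 CPM in liver pull-down, against 186, 240 and 278 CPM in liver input, and 337, 154, 291, 280 and 339 CPM in kidney pull-down, against 129, 73.6, 61.9, 111 and 293 CPM in kidney input. Its groups overlapped in both tissues and its difference was -1.78 ± 0.34 (adjusted p 0.00154). The promoters of the inducible pair are shown because both genes were more enriched in liver, as read from RefSeq on GRCm38.p6 (250 bases before to 50 after the start), Hspa1a at chr17:34972107-34972406 and Hspa1b at chr17:34959189-34959488, both on the minus strand and written 5′ to 3′. Capitals mark the heat shock element core GAANNTTC, which reads the same on both strands.
Hspa1a: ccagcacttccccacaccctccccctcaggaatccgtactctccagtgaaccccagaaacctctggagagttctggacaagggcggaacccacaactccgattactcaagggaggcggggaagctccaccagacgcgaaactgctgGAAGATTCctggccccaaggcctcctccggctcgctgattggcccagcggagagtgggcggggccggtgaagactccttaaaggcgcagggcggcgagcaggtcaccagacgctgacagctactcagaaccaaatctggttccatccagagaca
Hspa1b: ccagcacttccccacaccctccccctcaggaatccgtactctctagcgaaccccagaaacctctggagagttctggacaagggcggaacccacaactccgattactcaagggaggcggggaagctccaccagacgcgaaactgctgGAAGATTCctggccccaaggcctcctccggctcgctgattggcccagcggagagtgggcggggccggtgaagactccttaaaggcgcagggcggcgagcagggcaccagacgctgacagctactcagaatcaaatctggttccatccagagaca
Each holds 1 match, starting at base 147, and the 2 windows differ at 4 of 300 bases (98.7% identical). Dnaja1, the other heat shock gene more enriched in liver, was searched too and is not shown. Its window at chr4:40722218-40722517 holds 1 match, and those at chr4:40722672-40722971 and chr4:40722680-40722979 hold 0. Of 32851 promoters of this length, 7.86% hold the core, and a match describes these letters only.

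Metallothioneins, small metal-binding proteins induced by metals and glucocorticoids, were more enriched in liver, with log2 changes in kidney of -1.62 for Mt1 and -2.14 for Mt2. Mt1 had 581, 691 and 850 CPM in liver pull-down, against 449, 482 and 1390 CPM in liver input, the highest being LFD 1. In kidney it had 32.3, 35.9, 28.4, 49.4 and 33.7 CPM in pull-down, all below the 94.9, 150, 143, 102 and 92.1 CPM in input. The difference was 1.83 ± 0.32 (adjusted p 0.000615 in edgeR), and the change in liver alone did not pass (0.21, adjusted p 0.395). Without liver input LFD 1 the difference of Mt1 was 2.46. Its neighbour Mt2 differed by 2.01 ± 0.48 (adjusted p 0.0102). Their promoters are shown beside each other because both genes differed in the same direction, Mt1 at chr8:94178839-94179138 and Mt2 at chr8:94172368-94172667, both on the plus strand of GRCm38.p6, from RefSeq. Capitals mark the metal response element core, searched as TGCACNC and TGCGCNC on either strand.
Mt1: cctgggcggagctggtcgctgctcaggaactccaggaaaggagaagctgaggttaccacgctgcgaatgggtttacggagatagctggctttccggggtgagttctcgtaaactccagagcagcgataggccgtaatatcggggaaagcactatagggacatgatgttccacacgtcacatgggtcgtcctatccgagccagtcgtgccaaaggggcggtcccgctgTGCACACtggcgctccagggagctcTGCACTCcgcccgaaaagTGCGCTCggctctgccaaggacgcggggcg
Mt2: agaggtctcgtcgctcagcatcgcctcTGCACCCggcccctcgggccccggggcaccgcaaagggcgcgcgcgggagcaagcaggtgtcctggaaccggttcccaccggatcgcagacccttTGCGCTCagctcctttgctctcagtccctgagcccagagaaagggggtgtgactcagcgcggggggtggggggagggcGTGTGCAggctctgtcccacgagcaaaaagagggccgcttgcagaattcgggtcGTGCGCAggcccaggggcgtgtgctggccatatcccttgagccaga
Mt1 holds 3 matches and Mt2 holds 4. Of the 32851 promoters 25.7% hold at least 1 match, 1.97% at least 3 and 0.517% at least 4.

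Glucocorticoid-responsive genes, of which 18 were measured, had a median difference of 0.34 (0.49 and 0.53 under the other scalings). Of these, 4 were more enriched in liver (3.72% of all genes) and 2 less (8.84% of all genes), or 4 and 1 under all 3 scalings. Besides Mt1 and Mt2, the genes more enriched in liver were Cdkn1a, the cell cycle inhibitor p21, and Cebpd, a CCAAT/enhancer-binding factor. Cdkn1a had 15.1, 24.6 and 30.9 CPM in liver pull-down, against 8.78, 11.4 and 15 CPM in liver input, and 4.22, 3.92, 2.44, 4.44 and 4.86 CPM in kidney pull-down, against 4.89, 8.04, 9.18, 4.27 and 6.34 CPM in kidney input. Every liver pull-down of Cdkn1a lay above the inputs while the kidney groups overlapped, and the difference was 1.61 ± 0.30 (adjusted p 0.00113 in edgeR). Cebpd differed by 1.47 ± 0.33 (adjusted p 0.00443). Of 11 p53 target genes 2 were more enriched in liver and none less, Cdkn1a again and Ccng1, a cyclin (0.96 ± 0.20).

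Most clock genes rose in the pull-down of both tissues. Of 18 circadian clock genes, 15 were higher than input in liver pull-down (25.6% of all genes) and 16 in kidney pull-down (29.2% of all genes), with none lower in either and medians of 1.09 and 1.12. In the difference, 2 were higher, the repressors Bhlhe41 (1.33 ± 0.34) and Nfil3 (1.16 ± 0.36), and 1 was lower, the activator Tef (-0.92 ± 0.22). Bhlhe41 lost its call with the replicate block, Nfil3 in 9 of 30 settings and Tef in 10 of 31, total-count scaling among them. The list median of the difference was -0.10, or 0.06 and 0.07 under the other scalings. Of 23 immediate early genes, 1 was more enriched in liver, Maff (1.28 ± 0.31), and 3 less (2 under all 3 scalings), led by the Krüppel-like factor Klf4 (-2.63 ± 0.60), counts near the 3.72% and 8.84% of all genes. Of 17 acute phase and NF-kB genes, 2 were more enriched in liver, Il1r1 and the cytokine signalling inhibitor Socs3 (3.24 ± 0.71), and 1 less, Icam1 (-2.10 ± 0.64), whose call was lost in 16 of 30 settings. Of 17 interferon response genes, 2 were more enriched in liver and none less, Rsad2 (1.94 ± 0.38) and Ifit1 (1.66 ± 0.50). Ifit1 lost its call in 6 of 30 settings. Socs3, Icam1, Rsad2 and Ifit1 were each below 5 CPM in an input.

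**Figure D3:**
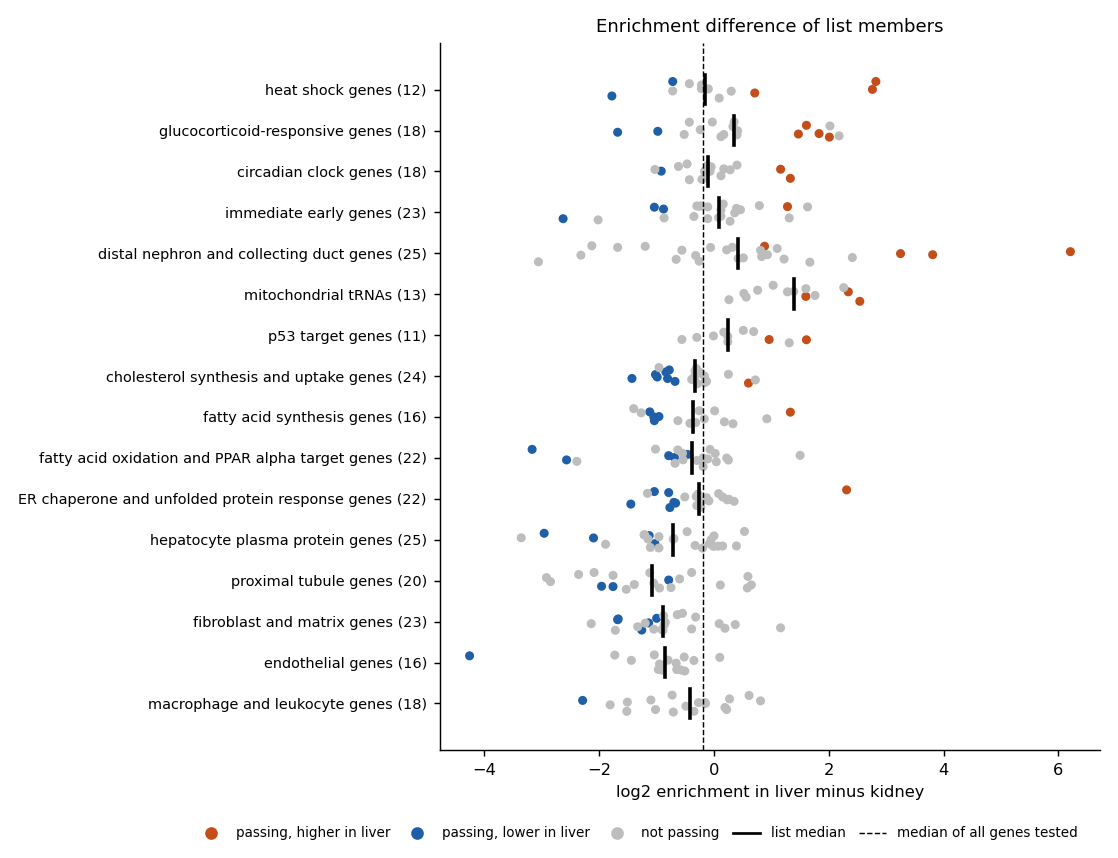
Log2 enrichment in liver minus kidney for every measured member of 16 gene lists (number of members in brackets); short bars are list medians and the dashed line is the median of all genes tested, -0.19. Heat shock and glucocorticoid-responsive genes have single members far to the right, matrix and endothelial genes lie mostly to the left, and the rightmost point, Sim1, is a fitted value for a gene with 0 counts in liver input.

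Several enzymes of lipid synthesis were less enriched in liver. Of 24 genes of cholesterol synthesis and uptake, 1 was more enriched in liver (3.72% of all genes) and 7 less (8.84% of all genes). The median difference was -0.33 (-0.18 and -0.14 under the other scalings). The liver median was -0.78 and the kidney median -0.19. The lower calls that held under all 3 scalings were 6 synthesis enzymes, Tm7sf2 (-1.43), Nsdhl (-1.02 ± 0.20), Fdft1 (-0.99), Lss (-0.84 ± 0.18), Hmgcs1 (-0.81) and Cyp51 (-0.78 ± 0.16). Lss and Cyp51 each lost their call in 8 of 31 settings, summed near-identical liver inputs among them, while Nsdhl kept its call. The higher one was Msmo1 (0.60), another enzyme of the same path. Of 16 fatty acid synthesis genes 1 was more enriched in liver, the elongase Elovl6 (1.33), and 4 less (3 under all 3 scalings), including Acly (-1.04 ± 0.18), the source of cytosolic acetyl-CoA, and the desaturase Fads1 (-1.12 ± 0.19). Acss2, which makes acetyl-CoA from acetate, had 27.9, 44.6 and 67.4 CPM in liver pull-down, against 70.6, 188 and 317 CPM in liver input, and 137, 125, 141, 168 and 160 CPM in kidney pull-down, against 252, 238, 235, 257 and 252 CPM in kidney input. The pull-downs of Acss2 lay below every input in both tissues, by -1.79 in liver and -0.74 in kidney, and the difference was -1.05 ± 0.15 (adjusted p 4.81e-05 in edgeR).

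Of 22 fatty acid oxidation and PPAR alpha target genes, 0 were more enriched in liver (3.72% of all genes) and 5 less (8.84% of all genes). Of the 5, 3 held under all 3 scalings (4.62% of all genes), and the list median was -0.38 (-0.23 and -0.19 under the other scalings). Vnn1, a pantetheinase, had 0, 0.931 and 1.36 CPM in liver pull-down, against 5.01, 6.08 and 7.76 CPM in liver input, and 56.8, 50.3, 56.2, 52.6 and 59.2 CPM in kidney pull-down, against 67.7, 68.5, 67.5, 60.8 and 57.7 CPM in kidney input. Liver pull-downs of Vnn1 all lay below the inputs and the kidney groups overlapped, with a difference of -2.57 ± 0.33 (adjusted p 2.01e-05 in edgeR). Acaa1b, a peroxisomal thiolase, had 60.4, 84.1 and 132 CPM in liver pull-down, against 90.1, 147 and 512 CPM in liver input, and 39.7, 30.5, 36, 45.3 and 31.8 CPM in kidney pull-down, against 7.97, 5.17, 3.88, 5.61 and 27.4 CPM in kidney input. The liver groups of Acaa1b overlapped and the kidney pull-downs all lay above the inputs, with a difference of -3.17 ± 0.48 (adjusted p 0.000235).

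Of 14 gluconeogenesis genes most had no call, while 2 were more enriched in liver (3.72% of all genes), Got1 (0.94 ± 0.16) and the coactivator Ppargc1a (1.04 ± 0.24), and 1 less (8.84% of all genes), the alanine aminotransferase gene Gpt (-1.38 ± 0.25). Of 15 bile acid genes 2 were more enriched in liver and 2 less. Nr0b2, the repressor of bile acid synthesis known as SHP, was more enriched in liver, with 62.1, 97.5 and 161 CPM in liver pull-down, against 21.9, 43.5 and 96.5 CPM in liver input, but only 2 counts over the kidney pull-downs and 49 over the kidney inputs (adjusted p 0.000305 in edgeR). Abcb4, the phospholipid exporter of bile, was less enriched in liver (-2.02 ± 0.44). Of 22 endoplasmic reticulum chaperone genes 1 was more enriched in liver, the pseudokinase gene Trib3 (2.31), and 6 less (4 under all 3 scalings), including Ero1lb (-1.45 ± 0.25), Pdia4 (-1.04 ± 0.21) and Pdia6 (-0.77 ± 0.16), which form disulphide bonds. Pdia6 lost its call in 7 of 31 settings.

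Plasma protein transcripts of hepatocytes were lower in liver pull-down than in input. Of 25 hepatocyte plasma protein genes, 24 were lower in liver pull-down than in liver input (36.8% of all genes), with a median of -1.92. Together the 25 took 5.44% to 5.88% of liver pull-down counts, against 9.82% to 15.7% of liver input (exact permutation over libraries, adjusted p 0.00551). In the difference 4 of the 25 were less enriched in liver (8.84% of all genes) and 0 more (3.72% of all genes), with a median of -0.71. Under all 3 scalings 3 held, Ambp (-2.96 ± 0.42), Serpinc1 (-2.10 ± 0.32) and Fga (-1.13 ± 0.16). Ambp and Serpinc1 were below 5 CPM in an input, and 7 of the 25 genes were measured in both inputs. All 25 genes made up 0.00933% to 0.015% of counts in kidney pull-down and 0.0146% to 0.0268% in kidney input. Alb differed by -0.33 ± 0.45 (adjusted p 0.706 in edgeR) and Tat, a glucocorticoid-induced enzyme, by 2.18 ± 0.78 (adjusted p 0.0711).

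Of 20 proximal tubule genes 3 were less enriched in liver than in kidney (8.84% of all genes) and 0 more (3.72% of all genes), with a median of -1.08. The 3 were the water channel Aqp1 (-1.76 ± 0.26), the dicarboxylate transporter Slc13a3 (-1.96 ± 0.33) and Keg1 (-0.79 ± 0.17), which lost its call in 9 of 31 settings. Of the 20 genes, 7 were measured in both inputs. The summed share of the 20 genes was 0.116% to 0.145% of liver pull-down, against 0.189% to 0.241% of liver input. In kidney it was 2.96% to 5.12% of pull-down, against 8.78% to 10.6% of input (exact permutation, adjusted p 0.0111 in kidney). The tubule markers Kap, Slc34a1 and Lrp2 make up little of the liver share, with liver input medians of 16.9, 2.16 and 1.34 CPM of assigned counts. Kap, with the largest kidney input level named here, differed by 0.11 ± 1.12.

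Several distal nephron and collecting duct genes were more enriched in liver, at low liver levels. Of 25 measured, 2 reached 5 CPM in both inputs, and 21 were lower than input in kidney pull-down (29.8% of all genes), with a median of -1.16. In the difference 4 were more enriched in liver (3.72% of all genes) and 0 less (8.84% of all genes). The median difference of the 25 genes was 0.42 (0.56 and 0.60 under the other scalings). Their share was 0.0193% to 0.0245% of liver pull-down, against 0.00913% to 0.0157% of liver input (exact permutation, adjusted p 0.00551), and 0.197% to 0.377% of kidney pull-down, against 0.576% to 0.645% of kidney input (adjusted p 0.0111). In liver most of this share is Wnk1, a kinase gene that many tissues express, with 4189 of 4686 counts in pull-down and 2184 of 2958 in input. Without Wnk1 the share was 0.00211% to 0.00251% of liver pull-down, against 0.00216% to 0.00505% of liver input, and 0.168% to 0.343% of kidney pull-down, against 0.538% to 0.624% of kidney input. Leaving it out was chosen after seeing the data. Egf, the epidermal growth factor precursor made by the distal tubule, had 4.63, 6.01 and 7.67 CPM in liver pull-down (139 counts), against 1.52, 2.43 and 5.33 CPM in liver input (48 counts), and 247, 208, 200, 502 and 242 CPM in kidney pull-down, against 1350, 1010, 1240, 1300 and 898 CPM in kidney input. All kidney pull-downs of Egf lay below the inputs, the liver groups overlapped at 1 library, LFD 1, and the difference was 3.25 ± 0.31 (adjusted p 8.85e-07 in edgeR). The others were Sim1 (above), the sodium pump regulator Fxyd4 (3.81 ± 0.83) and Wnk1 (0.88 ± 0.19). The collecting duct marker Aqp2 was at a median of 0 CPM in both liver fractions. Umod, the marker of the thick ascending limb, had medians of 0.113 CPM in liver pull-down (highest 0.551) and 0.414 CPM in liver input (highest 2.97). Both genes are given as CPM of assigned counts without TMM, as for the tissue markers above.

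Most genes of the supporting cell types fell in pull-down in both tissues. All 16 endothelial genes were lower in liver pull-down (36.8% of all genes) and 13 in kidney pull-down (29.8% of all genes). Their medians were -2.30 and -1.47. In the difference 2 were less enriched in liver (8.84% of all genes) and 0 more (3.72% of all genes), with a median of -0.86. Of these Stab2 passed under all 3 scalings but had 8 counts over the kidney pull-downs and 3 over the kidney inputs, and it lost its call in 5 of 30 settings. Of 18 macrophage and leukocyte genes, 18 were lower in liver and 16 in kidney pull-down (medians -1.83 and -1.37), and the difference passed for Csf1r, the receptor of macrophage colony-stimulating factor. Csf1r had 1.21, 2.64 and 4.36 CPM in liver pull-down, against 13.7, 19.9 and 30.2 CPM in liver input, and 21.5, 18.9, 26.6, 27.6 and 28.1 CPM in kidney pull-down, against 36.2, 47.4, 47.6, 29.4 and 44.9 CPM in kidney input. Its pull-downs lay below every input in both tissues, and the difference was -2.29 ± 0.30 (adjusted p 2.64e-05 in edgeR). Of 23 fibroblast and matrix genes 21 were lower in liver and 17 in kidney pull-down, and 5 were less enriched in liver and 0 more (median -0.89; 1 more enriched under each of the other scalings, and the less enriched ones falling to 4 under all 3 scalings), led by the laminin gene Lamb1 (-1.68 ± 0.26) and the collagen genes Col4a2 (-1.67 ± 0.22), Col3a1 (-1.26 ± 0.25) and Col4a1 (-1.14). Col4a2 had 5.11, 6.77 and 7.87 CPM in liver pull-down, against 12.5, 14.8 and 23.2 CPM in liver input, and 88.7, 57.9, 71, 78.8 and 81.4 CPM in kidney pull-down, against 58.5, 60.9, 60.1, 47.2 and 68.5 CPM in kidney input. The liver pull-downs of Col4a2 all lay below the inputs and the kidney groups overlapped. Summed shares moved alike, with endothelial genes at 0.0101% to 0.0155% of liver pull-down, against 0.0351% to 0.0592% of liver input, and at 0.0078% to 0.0213% of kidney pull-down, against 0.0189% to 0.0348% of kidney input. What these cell types contribute to the differences of other genes was not tested.

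Most ribosomal protein and respiratory chain transcripts fell in the pull-down of both tissues. Over all genes tested, 36.8% were lower in liver pull-down and 29.8% in kidney pull-down. Of 47 large-subunit ribosomal protein genes 44 were lower in liver pull-down and 30 in kidney pull-down, and of 33 small-subunit genes 30 and 25. The difference passed for 3 and 2 of them, all less enriched in liver (8.84% of all genes), and for 0 of either under the other scalings. Near-identical pseudogene copies leave the counts of these genes uncertain. Of 87 nuclear-encoded respiratory chain genes, 82 were lower in liver and 78 in kidney pull-down (medians -1.73 and -1.55), with 3 less enriched in liver (1 under all 3 scalings) and 0 more. Of 31 mRNA decay and polyadenylation regulators, 26 were higher in liver pull-down (25.6% of all genes) and 23 in kidney (29.2%). The difference passed for Tnrc6a (0.58 ± 0.16) and Cnot7 (0.74 ± 0.22), both more enriched in liver. Tnrc6a lost its call in 2 of 31 settings and Cnot7 in 4 of 31. Of 309 Zfp zinc finger genes 178 were higher in liver and 183 in kidney pull-down, with 7 more and 8 less enriched in liver (7 and 4 under all 3 scalings).

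Mitochondrially encoded mRNAs took a larger share of pull-down than of input in both tissues. Mitochondrial mRNAs took 12.2% to 16.6% of counts in liver pull-down, against 6.33% to 9.13% in liver input, and 16.9% to 20.3% in kidney pull-down, against 11.6% to 17.6% in kidney input (exact permutation, adjusted p 0.00551 and 0.0193). Of the 7 measured singly 0 passed in the difference in edgeR, with a median of 0.42, and 2 passed towards liver with total-count scaling. Of 13 mitochondrial tRNAs 3 were more enriched in liver (3.72% of all genes) and 0 less (8.84% of all genes), with a median of 1.39. The 3 were mt-Tf (2.54 ± 0.66), below 5 CPM in an input, mt-Te (2.34 ± 0.61) and mt-Ti (1.6 ± 0.48), which lost its call in 5 of 31 settings. Mitochondrial tRNAs made up 0.165% to 0.204% of liver pull-down, against 0.0572% to 0.394% of liver input (exact permutation, adjusted p 0.84), and 0.0843% to 0.136% of kidney pull-down, against 0.168% to 0.742% of kidney input (adjusted p 0.0111). These tRNAs lie within longer precursor transcripts, and how strand was treated in counting is not given, so their counts may include other RNA.

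**Figure D4:**
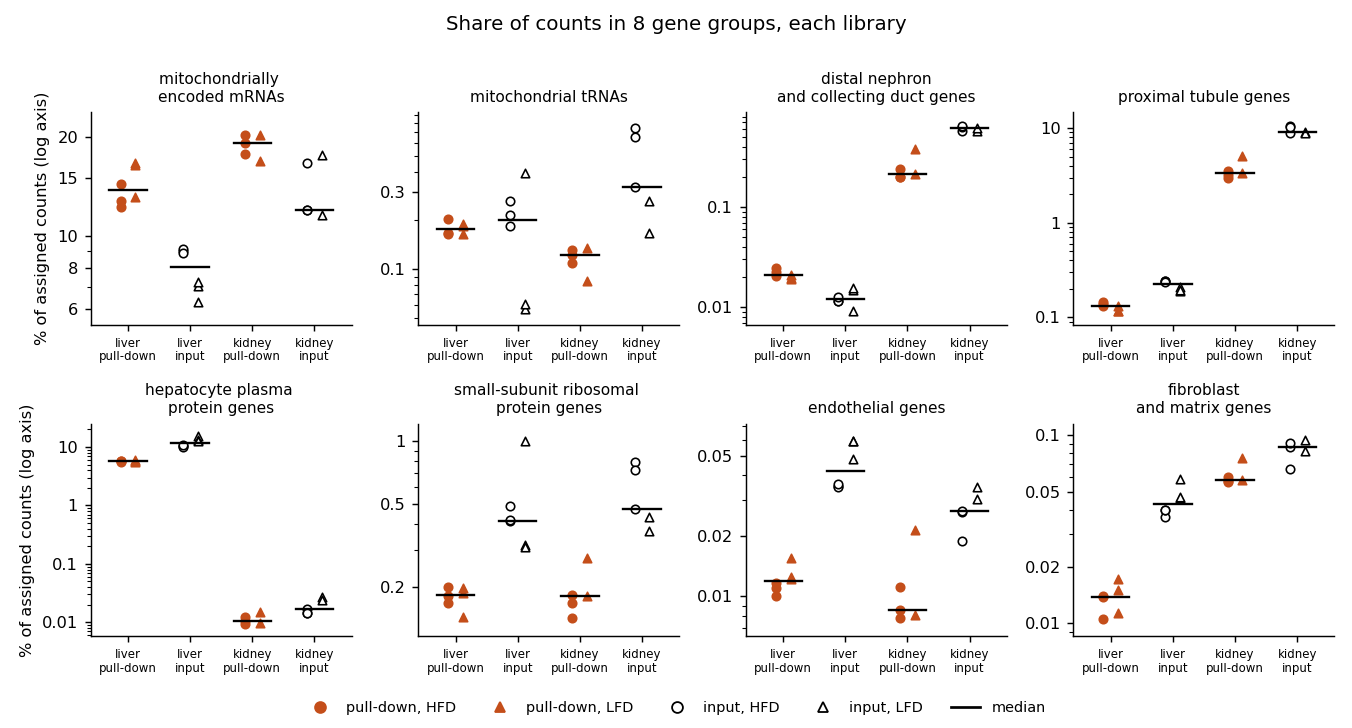
Share of assigned counts (percent, log axis) of 8 gene groups in each of the 22 libraries; pull-down is filled, input open, HFD circles, LFD triangles, and bars are medians. Hepatocyte plasma protein genes in liver lie at 5.44% to 5.88% in pull-down and 9.82% to 15.7% in input, and distal nephron genes lie below their input in kidney, at 0.197% to 0.377% against 0.576% to 0.645%; their liver share is mostly counts of Wnk1.

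Nuclear long noncoding RNAs made up 0.157% to 0.227% of liver pull-down, against 0.124% to 0.198% of liver input (exact permutation, adjusted p 0.097), and 0.581% to 0.775% of kidney pull-down, against 0.283% to 0.441% of kidney input (adjusted p 0.0111). Malat1, the most abundant of them, had 990, 1330 and 1920 CPM in liver pull-down, against 1350, 1750 and 2250 CPM in liver input, and 4980, 5380, 3600, 4170 and 4130 CPM in kidney pull-down, against 2840, 2160, 2120, 2790 and 2980 CPM in kidney input. The kidney groups of Malat1 stood apart and the liver groups overlapped, with a difference of -1.08 ± 0.19 (adjusted p 0.000669 in edgeR).

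Single nuclear receptors and transporters differed in either direction. Of 42 nuclear receptor genes 3 were more enriched in liver and 2 less (3 and 1 under all 3 scalings). Nr3c2, the mineralocorticoid receptor, had 24.3, 42.1 and 70.2 CPM in liver pull-down, against 15.9, 17 and 27.5 CPM in liver input, and 7.81, 7.84, 5.04, 9.72 and 6.03 CPM in kidney pull-down, against 12.7, 9.98, 9.08, 14.8 and 10.3 CPM in kidney input, a difference of 1.67 ± 0.25 (adjusted p 0.000117 in edgeR) with groups that overlapped in both tissues. Nr2f6 differed by -2.32 ± 0.35. Of 259 solute carrier genes 19 were more enriched in liver and 37 less (19 and 23 under all 3 scalings), against 3.72% and 8.84% of all genes tested, with the nucleoside transporter Slc29a1 (2.33 ± 0.28), the glucose transporter Slc2a1 (1.53 ± 0.19) and the lysosomal amino acid transporter Slc36a1 (-1.91 ± 0.19) at the smallest p. Of 23 vacuolar ATPase genes 2 were more enriched in liver and 3 less (2 and 1 under all 3 scalings), and Atp6v0c (-2.44 ± 0.55) held an input library apart, kidney LFD 2 at 11.9 CPM. Of 22 Hox genes 2 were less enriched in liver, with Hoxa5 at 5 counts over the liver pull-downs and 46 over the liver inputs. Among Cyp3a genes, 1 of 6 passed, Cyp3a59 (-2.37 ± 0.72), which the strain's deletion names and which lost its call in 16 of 30 settings.

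The enrichment difference was related weakly to where a gene is more abundant. To limit overlap, the liver over kidney ratio was taken from the inputs of one diet and the difference from the libraries of the other. The measures still share a selection, because the mean of at least 5 CPM was taken over the inputs of both diets. A gene far higher in kidney entered only if its liver input reached 5 CPM, and likewise for liver. What this selection adds to the medians below was not tested. Across the 8255 genes the difference on HFD correlated with the input ratio on LFD at Pearson's r = 0.18 and Spearman's rho = 0.18, and the difference on LFD with the input ratio on HFD at 0.23 and 0.27. Genes over 16-fold higher in kidney input had a median difference of -0.79 in HFD libraries (58 genes, of which 31.0% were less enriched in liver) and of -0.95 in LFD libraries (67 genes, 28.4%). Genes within 2-fold had medians of -0.10 in HFD libraries (5849 genes, 3.8% less enriched) and -0.16 in LFD libraries (5620 genes, 7.19%). Genes 4- to 16-fold higher in liver input had medians of 0.20 in HFD libraries and -0.02 in LFD libraries, and 8.29% and 12.2% of them were more enriched in liver, against 1.74% and 2.3% of those within 2-fold. Less enriched in liver were 6.08% and 9.15% of the 4- to 16-fold class, against 3.8% and 7.19% within 2-fold. Of genes over 16-fold higher in liver input, 10% were more and 10.9% less enriched in liver in HFD libraries, and 10.5% more and 11.4% less in LFD libraries. These values describe genes that share libraries and depth and carry no test.

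**Figure D5:**
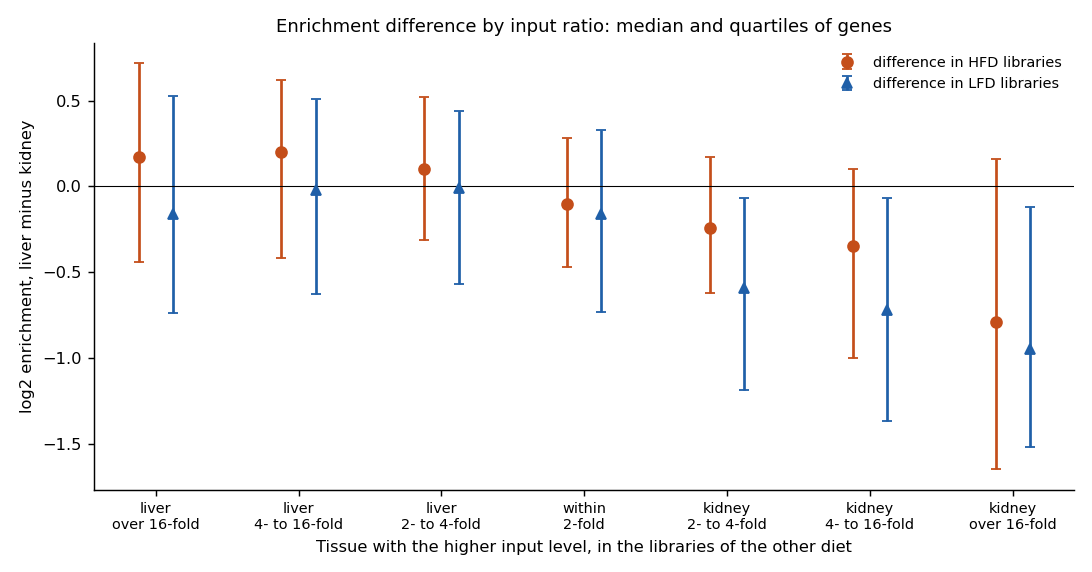
Enrichment in liver minus kidney (log2, vertical axis) for the 8255 genes in 7 classes of liver over kidney input ratio taken from the other diet's libraries; points are medians and bars quartiles of genes, with HFD libraries as circles and LFD libraries as triangles. The medians are lowest for genes over 16-fold higher in kidney input, at -0.79 (HFD) and -0.95 (LFD), and lie between -0.16 and 0.20 in the classes higher in liver.

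Among the 8255 genes measured in both inputs, those more enriched in liver had a longer median span on the genome. By RefSeq annotation of GRCm38.p6, the median span was 37.9 kb for the genes more enriched in liver, 24.2 kb for those less enriched and 25.0 kb for those without a call, of the 98.1% of genes with a span. This is a description with no test.

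Diet left no gene past the threshold. The change of the difference between HFD and LFD passed for 0 of 13724 genes in edgeR, with 2459 at an unadjusted p under 0.05 and 198 calls with DESeq2, and the smallest p values were those of Scap, the escort of sterol-regulated factors (2.78 ± 0.46, from 0.92 on HFD and -1.86 on LFD), Rnpepl1 (2.67 ± 0.49) and Eps8l2 (3.33 ± 0.62), each with an adjusted p of 0.0576. Taken on each diet alone, 311 genes were more enriched in liver (2.27%) and 557 less (4.06%) on HFD (6.32% in either direction), and 317 more (2.31%) and 932 less (6.79%) on LFD (9.1% in either direction). The differences on the diets, which share no library, correlated weakly across the 8255 genes (Pearson's r = 0.21, Spearman's rho = 0.1). Of the 602 genes called on HFD among them, 81.9% had the same sign on LFD and 31.1% were called there, and of 970 called on LFD 72.3% had the same sign on HFD and 19.3% were called, against 52.7% with the same sign over all genes. The count depends on single inputs: without kidney input HFD 1 the diet change passed for 1459 genes, and without both kidney inputs above 15% mitochondrial mRNA for 496.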

How the data were processed

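Tissue RNA was extracted with NucleoZOL, made into libraries with the CATS kit for small RNA and read single-end at 75 bp, per the labels' protocols. The authors deposited raw counts per gene, made with STAR and HTSeq on mm10 per the submitters' processing notes; versions and the strand setting are not given in the sources used here. Each file has 55273 features, and 435 of these are tRNA loci, while 54723 of 54838 Ensembl IDs matched a symbol. Counts below a floor of 3 over a group were read as not detected, which covers counting error only.

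All 22 libraries entered 1 fit over 8 groups (edgeR 4.0.16 in R 4.3.3, robust quasi-likelihood F-test after TMM scaling and filterByExpr at 10 counts), 2-sided with Benjamini-Hochberg adjustment at 0.05. SE is the absolute log2 value over the square root of F. Shares of counts were compared by 2-sided exact permutation, adjusted over 28 comparisons. The smallest possible p was 0.00216 in liver and 0.00794 in kidney. These tests pooled the diets, took the near-identical liver inputs as separate libraries and were not repeated with those inputs summed. Their liver p-values may therefore be too small. On simulated data with 13724 genes the difference recovered 35.4% of genes changed 2-fold and 80.8% of genes changed 4-fold, with 4.17% of calls false. The simulated counts varied independently around the group means, without near-identical or outlying libraries. The 4.17% therefore does not measure the false share among the real calls.

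Members and lists were chosen with earlier results of these data known. Named genes are the 12 largest passing differences each way with a mean of at least 5 CPM in both inputs, the 6 largest each way with opposite calls in the tissues, the 3 smallest p for diet, the 3 members with the smallest p in each list, Alb, Tat, Kap, the Cyp3a genes, and the 4 largest each way below that level. Mt2, Dnaja1, Msmo1, Elovl6, Trib3, Tm7sf2, Fdft1, Hmgcs1, Col4a1 and the marker genes of the library description were chosen after their values were seen. Alternatives were DESeq2 1.42.0, other scalings, no filter or a stricter one, a replicate block, summed near-identical inputs and leaving out each library. Promoters came from RefSeq tables on GRCm38.p6. Values of some members that the rule selects are not reported here.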

Additional observations from a re-analysis of the deposited data

Results flagged for a closer look

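Of 152 sets of values tested for a library far from the rest of its group, 12 stood out (7.89%), where chance gives about 1 in 20. Liver input LFD 1 held 4 of them: a large-subunit ribosomal protein share of 0.942% against 0.377% to 0.547% in the other liver inputs, Il1r1 at 182 CPM against 341 to 376, Mt1 at 1390 CPM against 449 to 503, and Egf at 5.33 CPM against 1.52 to 2.82. Kidney pull-down LFD 1 also held 4, with a proximal tubule share of 5.12% against 2.96% to 3.54%, Egf at 502 CPM against 200 to 247, Gpt at 30.1 CPM against 23.9 to 25 and Slc29a1 at 14.9 CPM against 4.12 to 5.7. Kidney input LFD 2 held Acaa1b at 27.4 CPM against 3.88 to 7.97 and Atp6v0c at 11.9 CPM against 0.403 to 3.17. In liver pull-down, Vnn1 was at 0 CPM in HFD 3 against 0.852 to 1.36, and Hoxa5 at 0.852 CPM in LFD 3 against 0 to 0.281. The test of the difference between tissues itself, the interaction in edgeR, passed for 1723 genes.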

How the results depend on the processing

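The balance of higher and lower calls (510 and 1213) and the sign of the median over all genes changed with the setting. Of 120 named genes that passed, 71 kept their call in every setting, of 31, that tested them and 0 changed sign. Centring on the median of all genes (-0.19) is among these settings and kept the adjusted p of the main fit. It could therefore not remove a call or change the sign of these genes. Lower calls were 807 with DESeq2-type size factors, where the diet change passed for 5 genes. Higher and lower calls were 834 and 640 with total counts, 915 and 460 in genes with 5 CPM in both inputs (177 in opposite directions, against 304), and 872 and 689 without the kidney inputs above 15% mitochondrial mRNA, where 2147 passed on HFD (868), 497 on LFD (1249) and 496 in the diet change (0). Summing near-identical liver inputs gave 729 higher and 428 lower calls, 503 on HFD and 653 on LFD. Without the filter the diet change passed for 549 genes. DESeq2 gave 965 higher calls and 198 in the diet change; it was chosen after seeing the data for the results by diet, the opposite calls and the lists.

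Leaving out 1 library gave 425 to 1739 higher calls, highest without liver input LFD 1, and 434 to 1762 lower calls, lowest without kidney input LFD 1 and highest without kidney input LFD 2. Ranges were 8049 to 8737 for liver (8565), 6605 to 8575 for kidney (8104), 466 to 1918 on HFD, lowest without kidney input HFD 3 and highest without HFD 1, 208 to 2389 on LFD, lowest without kidney input LFD 1 and highest without LFD 2, 0 to 1459 for the diet change, 219 to 382 for opposite directions and 139 to 334 for list members (186). Without liver input HFD 1, HFD 2, HFD 3, LFD 2 or LFD 3 higher and lower calls were 911 and 484, 982 and 533, 863 and 452, 967 and 504 and 1012 and 501, and without kidney input HFD 2, HFD 3 or LFD 1 they were 1113 and 569, 984 and 501 and 714 and 434; the cause was not tested. The median over all genes ran from -0.24 to 0.1 over the settings.

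Replicate numbers are shared between fractions, but the labels do not say that a number marks 1 animal, so they were not taken to pair libraries. Deviations of same-numbered pull-down and input libraries correlated at -0.222 to 0.103. These values cannot settle pairing. With 2 kidney LFD libraries in each fraction the deviations mirror each other, so both pairs had -0.169. With the replicate block, 312 genes were higher and 734 lower, and 444 passed on HFD and 430 on LFD. Liver depth limits genes at few counts, such as Adamts9, Sim1 and Fmnl1.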
